A study of Drosophila melanogaster with 16 samples.

Results

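The nuclear tRNA genes of Drosophila melanogaster were placed on the insulation boundaries and chromatin loops of the early embryo. Members were the genes that the RefSeq annotation of genome Release 6, the assembly known as dm6, classes as tRNA and gives a symbol beginning with tRNA: on chromosomes X and 4 and on the arms 2L, 2R, 3L and 3R, called the compared arms here. This gave 290 tRNA genes among 17673 annotated genes, and chromosome 4 held none of them. The 22 mitochondrial tRNA genes and 5 tRNA pseudogenes were left out. The choice used the annotation alone and no value of the contact maps.

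The maps came from Micro-C, which counts contacts between distant DNA segments by ligating crosslinked chromatin that micrococcal nuclease has cut down to nucleosomes. The series comprised 16 samples of embryos at nuclear cycle 14, when the blastoderm cellularises, and its stated question was how genome organization acts on transcription in development. The lists analysed here describe the control line alone, titled yw and with the genotype WT in the labels, for which there were 2 samples of pooled whole embryos with no treatment named. The 14 samples of edited lines, which the series text describes as CRISPR deletions, were not analysed here.

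Boundaries are bins across which contacts are depleted, and loops are pairs of bins, called anchors, that meet more often than their surroundings. The control lists held 1930 boundaries of 400 bp on the compared arms and 313 loops. Each feature carried 1 value for the control line and no value per sample, so there is no replicate error, no test over samples and no known depth. The percentages below are therefore descriptions. Their 95% Wilson intervals cover counting error only, and they treat genes as independent although neighbouring tRNA genes share a boundary.

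Transfer RNA genes are short genes transcribed by RNA polymerase III from promoters inside the transcribed sequence, the A and B boxes, which the factor TFIIIC binds before it recruits TFIIIB. In budding yeast a tRNA gene can act as a barrier to the spread of silent chromatin, and tRNA genes of human cells have been described as insulators. In the fly many tRNA species are encoded by several near-identical copies, and others by a single gene. A symbol gives the amino acid, the anticodon, a number for the mature sequence and a number for the copy, so tRNA:Ala-AGC-2-4 and tRNA:Ala-AGC-2-7 are copies that encode the same mature tRNA.

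The 290 genes fell into 84 such families with 44 anticodons. They were 71 to 186 bp long, with a median of 73 bp. Neighbours within 5 kb were joined into 144 loci. Of these, 76 were single genes and 68 held the other 214 genes, up to 11 in a locus. Arm 2R had 98 tRNA genes in 44 loci, 3R had 79 in 38, 3L had 48 in 23, 2L had 41 in 25 and X had 24 in 14. Of the 290 genes, 134 (46.2%) lay inside a protein-coding gene, and the median distance to the nearest end of a protein-coding gene was 2203.5 bp. Neither value was computed for other genes or for all bases of the compared arms.

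Most tRNA genes did not lie at a boundary. Of the 290 genes, 36 (12.4%, interval 9.10 to 16.7%) lay within 1 kb of one, and 13 of these, from 12 loci, overlapped the boundary bin itself. Over all annotated genes the share within 1 kb of a boundary was 15.9%, over the 13911 protein-coding genes 18.2%, and over all bases of the compared arms 3.36%. The share for tRNA genes thus stood between that of an arbitrary base and that of protein-coding genes. With each locus counted once the share was 12.5% (18 of 144, interval 8.06 to 18.9%).

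The order against protein-coding genes turned with the point from which a long gene was measured. A protein-coding gene was counted when either of its ends was near a boundary, which gives a long gene more than one chance. From the left end alone, its share was 10.0%, below that of the tRNA genes but inside their interval of 9.10 to 16.7%. The interval by locus, 8.06 to 18.9%, holds both this share and the 18.2% counted from either end. Crowding by the ends of protein-coding genes moved with the shares as well, and its part in them was not tested. Among the 104 tRNA genes that had such a gene end within 1 kb, 21 (20.2%) were at a boundary, and among the other 186 tRNA genes 15 were (8.06%). Protein-coding genes with another protein-coding gene's end within 1 kb stood at 21.1%, and those without one at 6.12%. Both of these shares lie inside the intervals of the tRNA genes with and without such an end. Those intervals ran from 13.6 to 28.9% with a protein-coding gene end nearby and from 4.95 to 12.9% without. The measures are unlike, since these protein-coding shares count either end of a gene and were not computed from the left end alone.

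**Figure D1:**
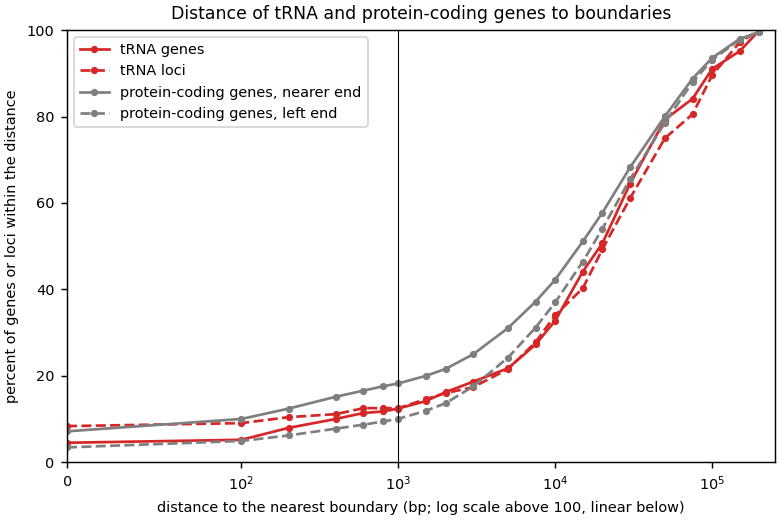
Percent of tRNA genes, tRNA loci and protein-coding genes (nearer end, or left end alone) within a given distance of the nearest boundary, in bp on an axis that is logarithmic above 100. At the vertical line of 1 kb the tRNA genes (12.4%) lie between the protein-coding genes measured from the nearer end (18.2%) and from the left end (10.0%).

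Away from the threshold, the distances were wide. The distance from a tRNA gene to the nearest boundary had a median of 18356.5 bp, with quartiles of 5977.75 and 38401.5 bp and a maximum of 185115 bp. Protein-coding genes had a median of 14266 bp from the nearer end and 17170 bp from the left end. Among other short genes, the median was 3981 bp for 269 snoRNA genes and 18308.5 bp for 260 miRNA genes. The shares within 1 kb were 16.0% for snoRNA genes, which guide RNA modification, 5.77% for miRNA genes and 31.2% for the 32 genes of spliceosomal and other snRNAs, whose interval ran from 18.0 to 48.6%.

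The distances of tRNA genes had no gap at the threshold. Just inside 1 kb lay tRNA:Ile-AAT-1-6 at 977 bp and tRNA:Pro-TGG-1-1 at 910 bp. Just outside lay tRNA:Asn-GTT-1-1, which with 2 further Asn genes sits inside EcR, the ecdysone receptor gene, at 1003 bp, and the single gene tRNA:Asp-GTC-1-11 at 1028 bp.

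Arms differed in how many of their tRNA genes stood at a boundary. Arm 2R held 20 of the 36 genes (20.4% of its tRNA genes) and 8 of the 18 loci. Arm 3R followed with 9 genes (11.4%), 3L with 4 (8.33%), 2L with 2 (4.88%) and X with 1 (4.17%). The shares of protein-coding genes, counted from either end, were 18.5% on 2R, 17.3% on 3R, 17.8% on 3L and 16.3% on 2L. Arm 2R also had the most boundaries (16.5) and the most tRNA genes (3.88) per Mb. On X the share of protein-coding genes at a boundary was the highest of the arms, at 22.4%, while its tRNA genes had a median distance of 96383.5 bp. That median rests largely on a domain of 378 kb, which held 14 of the 24 tRNA genes of X, in 5 loci. With 2R left out, 16 of 192 tRNA genes (8.33%, interval 5.19 to 13.1%) and 10 of 100 loci (10.0%, interval 5.52 to 17.4%) were at a boundary. For the protein-coding genes of the same arms the share was 18.1%. This share counts either end of a gene and was not computed from the left end alone, so the measures are unlike.

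Single and clustered genes differed by a count that arm 2R decided. Of the 76 single genes 6 were within 1 kb (7.89%, interval 3.67 to 16.2%), against 30 of the 214 clustered genes (14.0%, interval 10.00 to 19.3%). The difference of -6.12 percentage points had an interval of -12.9 to 3.08, which holds 0. Without 2R it was 0.840 percentage points, the other way. By locus, 7 of 38 loci of 2 genes, 3 of 20 loci of 3 or 4 genes and 2 of 10 loci of 5 or more genes were at a boundary. Of the 12 loci with several genes that were at a boundary, 9 had all of their genes within 1 kb.

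The boundaries near tRNA genes had strengths on both sides of the list's median. In all, 19 boundaries (0.984% of 1930) had a tRNA gene within 1 kb. Their strength, a deposited score whose scale the authors do not state, had a median of 1.61, a minimum of 1.26 and a maximum of 2.79. All boundaries had a median of 1.64 and a maximum of 9.50. The interval of the median for the 19 ran from 1.37 to 1.82 and holds the median of all. Of the 19, 9 reached the median of all boundaries and 1 was among the 193 strongest. Since the list was cut at a minimum strength just under its lowest value, a tRNA gene without a listed boundary may still lie at a weaker one. With only boundaries of at least the median strength, 16 tRNA genes (5.52%) remained within 1 kb, beside 8.17% of protein-coding genes.

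**Figure D2:**
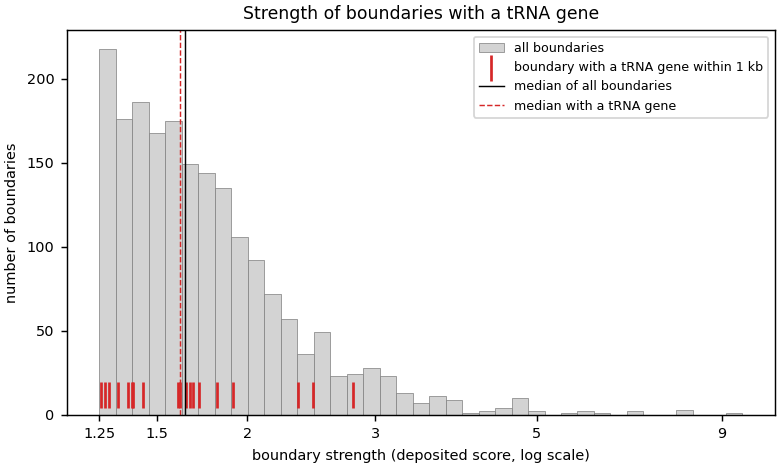
Number of boundaries by strength (deposited score, logarithmic axis) for all 1930 boundaries, with red ticks for the 19 that have a tRNA gene within 1 kb. The ticks run from 1.26 to 2.79, and the lines for the medians, 1.61 with a tRNA gene and 1.64 for all, lie side by side.

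Most of these boundaries also had a protein-coding gene. An end of a protein-coding gene lay within 1 kb of 13 of the 19 boundaries (68.4%), and of 72.9% of all boundaries. The 13 had a median strength of 1.64 (interval 1.37 to 1.91). The 6 without a protein-coding gene end had 1.41 (interval 1.29 to 2.79), and these intervals overlap. Over the whole list, the 1407 boundaries with a protein-coding gene end had a median of 1.61, beside 1.64 for all boundaries. Among the boundaries with both kinds of gene, that on X at 6744401 to 6744800 (strength 2.35) overlapped the single gene tRNA:Phe-GAA-1-2 and lay 163 bp from RpL17, which encodes a protein of the large ribosomal subunit. The boundary at 18639201 on 2R (2.46), with tRNA:Trp-CCA-2-2 in the bin and tRNA:Gly-GCC-1-9 at 126 bp, had an end of CG30122 inside it. At 21160801 on 2R (1.91), tRNA:Trp-CCA-2-3 overlapped the bin, and tRNA:Gly-GCC-1-12 and tRNA:Trp-CCA-2-4 followed at 156 and 326 bp. Both of these 2R boundaries thus carried a copy of the same Trp family beside a copy of the same Gly family. A further 2R locus of the same families, from tRNA:Trp-CCA-2-5 to tRNA:Gly-GCC-1-13, lay at least 20084 bp from a boundary.

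On 3L, the boundary at 18618001 (1.72) overlapped the single gene tRNA:Pro-CGG-2-3 and an end of not, the deubiquitinase gene in which this tRNA gene lies. Another copy of that family, tRNA:Pro-CGG-2-2, was 309 bp from the boundary at 17339201 (1.68). On 2R, tRNA:Arg-TCT-1-1 overlapped the boundary at 11652001 (1.64), with tRNA:Met-CAT-1-1 at 249 bp. These stand between the ends of CG34228 and of Roc2, a RING-box gene of ubiquitin ligases, at 28 and 35 bp from the tRNA genes. At 17604801 on 2R (1.37), tRNA:Phe-GAA-1-5 overlapped the bin and tRNA:Phe-GAA-1-4 lay at 194 bp, 74 bp from an end of the ubiquitin ligase gene Smurf. The single genes tRNA:Leu-TAA-2-1 and tRNA:Thr-AGT-1-4 on 3R overlapped boundaries of 1.61 each, beside Root, a rootletin gene of ciliated neurons, and inside CG31279.

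The strongest of the 19 boundaries bordered the domain with the most tRNA genes. It lay at 17616801 to 17617200 on 3R with a strength of 2.79, rank 137 of 1930, and tRNA:Val-CAC-1-1 and tRNA:Pro-TGG-1-1 stood 561 and 910 bp from it. They begin an 11-gene locus of 4 Ala, 3 Pro, 2 Thr and 2 Val genes that reaches 14479 bp from the boundary at tRNA:Pro-TGG-1-3. The domain of 65.2 kb to the right of the boundary held 18 tRNA genes in 4 loci. The next domain by this count, of 62.8 kb on 2R that takes in part of the EcR gene, held 17 genes in 4 loci. There the other 11-gene locus, with 4 Lys, 3 Arg, 3 Asn genes and 1 Ile gene, began 9935 bp from a boundary of 1.90.

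Between the Hox genes Dfd and Scr of the Antennapedia complex on 3R, 4 copies of tRNA:Lys-TTT-2 were spread around a pair of boundaries. tRNA:Lys-TTT-2-1 (6819894 to 6819966) lay 35 bp from the boundary at 6820001 (strength 1.82, rank 691). tRNA:Lys-TTT-2-2 stood between the boundaries, 668 bp from the first. tRNA:Lys-TTT-2-3 also stood between them, 140 bp from the second at 6822001 (1.67, rank 921). tRNA:Lys-TTT-2-4 lay 563 bp beyond the second boundary and 85 bp from the left end of Scr, the Hox gene of the first thoracic and labial segments. The fifth copy of the family, the single gene tRNA:Lys-TTT-2-5, was among the tRNA genes farthest from any boundary, at 182155 bp.

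On 2R, 5 of the 7 genes of a locus inside ATP8A, a gene of the phospholipid-transporting ATPases, were within 1 kb of a boundary of strength 1.33. tRNA:Leu-CAA-2-1 overlapped the bin, and tRNA:Ile-AAT-1-3 lay 46 bp to its other side. tRNA:Ile-AAT-1-4, tRNA:Ile-AAT-1-5 and tRNA:Ile-AAT-1-6 followed at 184, 485 and 977 bp, while tRNA:Ile-AAT-1-7 (1293 bp) and tRNA:Leu-CAA-1-1 (1868 bp) were farther. The single gene tRNA:Ile-AAT-1-8 was 462 bp from the next boundary (1.39), also inside ATP8A. Further genes in boundary bins were tRNA:Ala-TGC-2-1 (boundary strength 1.39), tRNA:Ala-CGC-1-2 inside gol (1.29), and tRNA:iMet-CAT-1-4 and tRNA:iMet-CAT-1-5, which share a bin inside ome (1.27).

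**Figure D3:**
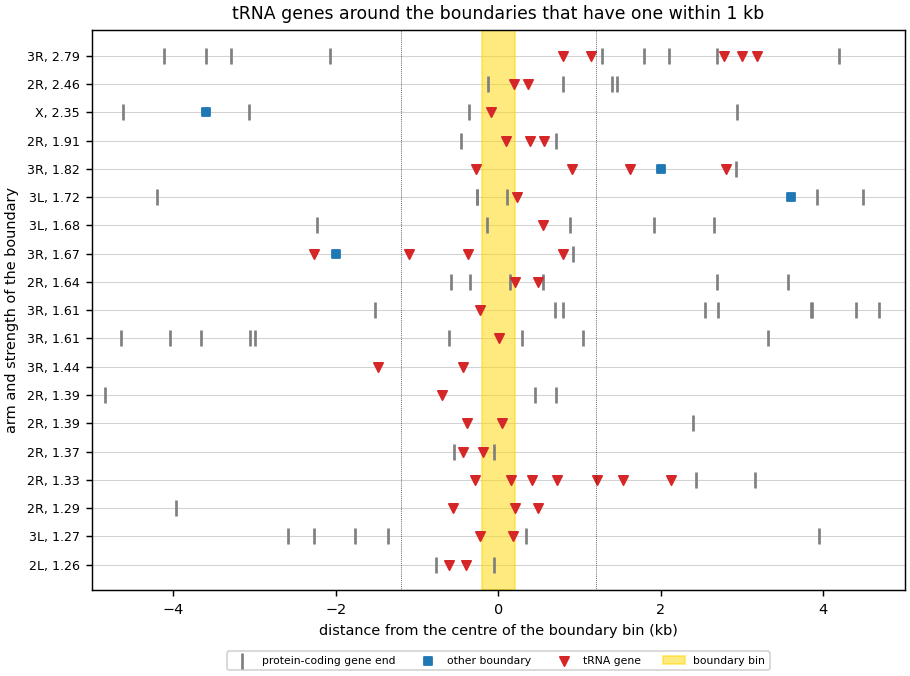
Positions of tRNA genes (red), protein-coding gene ends (grey) and other boundaries (blue) around the 19 boundaries that have a tRNA gene within 1 kb, in kb from the centre of the bin (gold), with 1 row per boundary labelled by arm and strength. Dotted lines mark 1 kb from the edges of the bin, and 12 of the rows have a tRNA gene that overlaps the bin.

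The other large loci lay away from boundaries, as did most tRNA loci. Among the 10 loci of 5 or more genes, 2 were at a boundary, beside 18 of all 144 loci (12.5%). Distance from a boundary thus does not set large loci apart, and the difference in share was not tested. The other 8 loci of 5 or more genes had their nearest gene between 4537 bp and 182717 bp from a boundary. The nearest was a locus of 4 Cys and 2 Lys genes on 3L and the farthest a locus of 5 Arg and 2 Ser genes on X, from tRNA:Arg-TCG-2-1 to tRNA:Arg-TCG-3-4, whose genes are the tRNA genes farthest from any boundary. This X locus lay in a domain of 378 kb beside the Stellate repeats, with Ste12DOR as its nearest gene. A locus of 6 Leu-CAG genes on 3L began at 35414 bp, a locus of 6 Glu-CTC genes on 3L at 30895 bp, and a locus of 5 Glu and 2 initiator Met genes on 2R at 26420 bp. In all, 26 tRNA genes of 15 loci (8.97% of the genes) were over 100 kb from a boundary, as were 6.41% of protein-coding genes.

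The domain that holds a tRNA gene, measured between the centres of neighbouring boundaries, had a median of 108 kb, and the domain around the midpoint of a protein-coding gene had 113.2 kb. With each domain counted once, the median over all 1924 domains was 36.0 kb. The medians above count a domain once for each gene in it, so the measures are unlike. On a scale from 0 at a boundary to 1 at the centre of the domain, tRNA genes had a median of 0.346 and protein-coding midpoints 0.436. With the first gene of each locus alone, the median was 0.419.

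By amino acid, genes of 14 of 22 classes were at a boundary, with initiator Met and selenocysteine counted as classes of their own. By share, the Ile genes led with 5 of 11 (45.5%), all on 2R, and their median distance of 1293 bp was the shortest. Phe and Trp followed with 3 of 8 each (37.5%), initiator Met with 2 of 6 (33.3%), Ala with 5 of 17 (29.4%), Lys with 4 of 19 (21.1%) and Pro with 3 of 17 (17.6%). No Ser gene of 20 and no Glu gene of 19 was within 1 kb, and the nearest of each lay at 1739 and 1478 bp. The Ile count rests on the ATP8A region, so the classes are not independent of the loci.

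**Figure D4:**
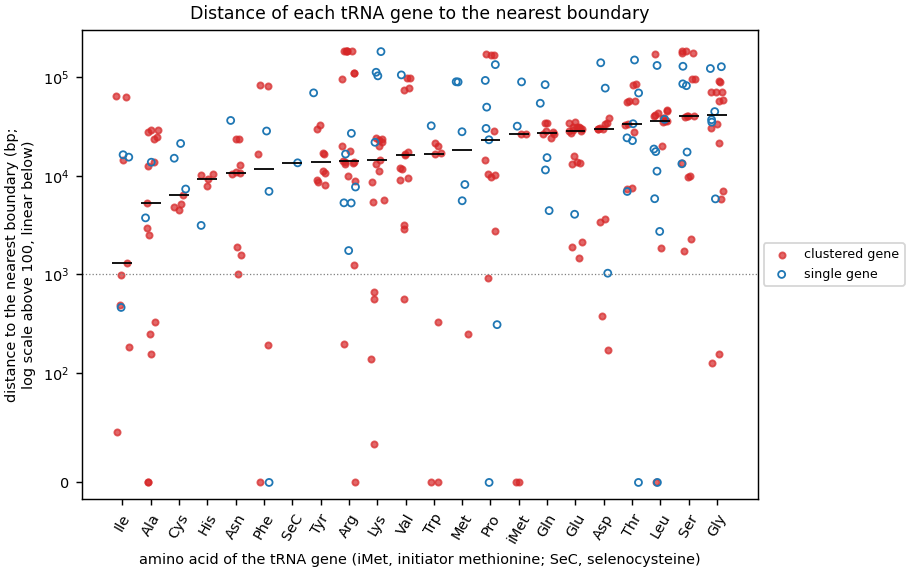
Distance of each of the 290 tRNA genes to the nearest boundary, in bp on an axis that is logarithmic above 100, by amino acid and ordered by the median (black bars). Filled points are clustered genes and open points single genes, and the dotted line marks 1 kb, below which 36 points lie.

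Few tRNA genes lay near a loop anchor, but by gene their share was not below that of the other gene classes counted. Where a loop had a tRNA gene near an anchor, both of its anchors had tRNA genes. Of the 290 genes, 12 (4.14%, interval 2.38 to 7.09%) lay within 1 kb of an anchor, beside 2.29% of all annotated genes and 2.14% of protein-coding genes. The 1959 lncRNA genes, measured from the nearer end, stood at 3.88%, which the interval of the tRNA genes holds. The 12 genes came from 6 of the 144 loci (4.17%, interval 1.92 to 8.79%). The interval by locus holds the shares of all annotated, protein-coding and lncRNA genes. The 12 genes lay at 6 anchors of 3 loops. Each of these 3 loops joined a tRNA locus to another tRNA locus. By comparison, ends of protein-coding genes were that close to an anchor in 190 loops and to both anchors in 68. A miRNA gene was near an anchor in 3 loops and at both in 0, and the same counts were found for snoRNA genes. A lncRNA gene, over its whole length, was near an anchor in 79 loops and near both in 15. With 3 loops, the difference between these counts was not tested. None of the 12 genes was within 1 kb of a boundary. Over all tRNA genes that share was 12.4%, so few would stand at one among 12 genes of 6 loci, and the absence was not tested.

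The first loop, on 2L, ran 17.2 kb from 2014001 to 2031201. tRNA:Gln-CTG-2-5, the last gene of a locus of 5 Gln genes, lay 751 bp from its left anchor, which is inside CG4238. The single gene tRNA:Gly-GCC-1-2 (2031692 to 2031762) lay 92 bp from its right anchor. Ends of CG42296 and CG4238 were within 1 kb of the right anchor as well, so this anchor is not near tRNA genes alone. The loop value, another deposited score of unstated scale, was 4.69, rank 273 of 313.

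The second loop, on 3R, ran 22.4 kb from 17623201 to 17645601 inside the domain with 18 tRNA genes. Its left anchor fell within the 11-gene locus and had tRNA:Thr-AGT-1-5 at 565 bp, tRNA:Ala-AGC-2-4 at 583 bp and tRNA:Thr-AGT-1-6 at 806 bp, and no protein-coding gene ended that close. Its right anchor overlapped tRNA:Pro-TGG-1-4 and tRNA:Ala-AGC-2-7 (17646368 to 17646440), with tRNA:Ala-AGC-2-6 at 222 bp and tRNA:Ala-AGC-2-8 at 283 bp. The right anchor had an end of CG43175 within 1 kb. Between the anchors lay 6 tRNA genes, some of them among those just named, and the genes AttD, which encodes an antibacterial attacin, CG14325 and CG43175. The value was 6.25, rank 197.

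The third loop, also on 3R, ran 11.6 kb from 19790801 to 19802401. tRNA:Ala-AGC-2-11 overlapped its left anchor, with tRNA:Val-CAC-2-6 at 607 bp. The single gene tRNA:Thr-AGT-1-7 (19802690 to 19802763) overlapped its right anchor, which lies inside bnl, the gene of the FGF ligand that guides tracheal branching. Neither anchor had an end of a protein-coding gene that close. The value was 5.73, rank 221.

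The 3 loops shared several features. All were below the median of 313 loops in value (7.75) and in span (32.8 kb), and none crossed a boundary. How many of the 313 loops cross a boundary was not counted, so this last feature may be common to the list. Their anchors lay 6001 to 28401 bp from the nearest boundary. Copies of the families Ala-AGC-2 and Thr-AGT-1 occurred at anchors of both 3R loops, 5 of 11 copies of the former and 3 of 7 of the latter. Identical copies can make short reads hard to place, and the anchors of the second loop shared the family Ala-AGC-2. The anchors of the other 2 loops shared no family. The sources used here do not say how reads with several matching positions were treated, and their part in the loops was not tested.

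**Figure D5:**
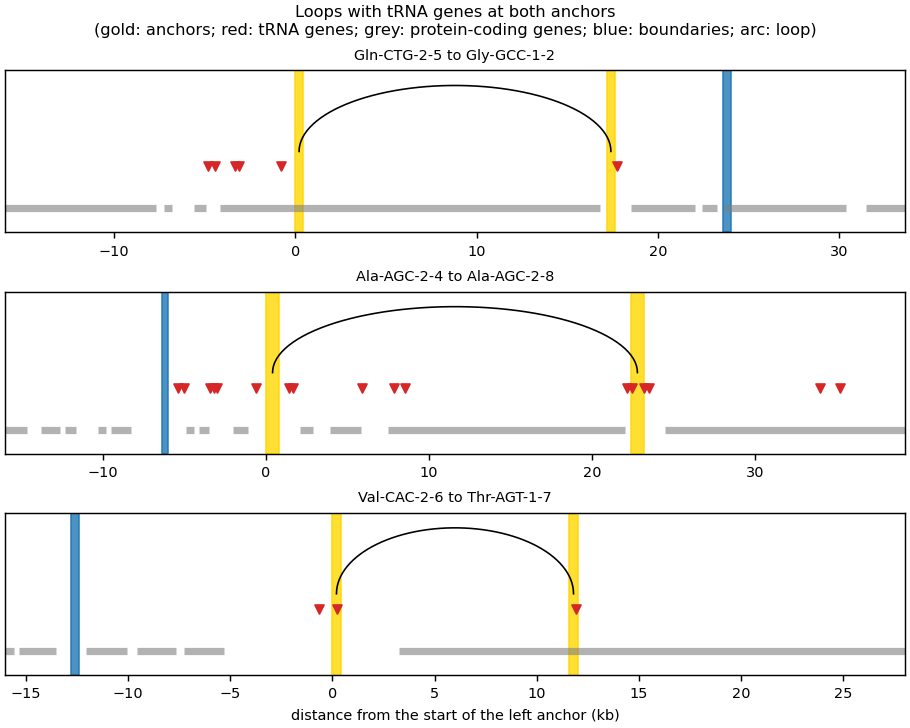
The 3 loops with tRNA genes near both anchors, drawn in kb from the start of the left anchor, with anchors in gold, tRNA genes in red, protein-coding genes in grey, boundaries in blue and an arc for the loop. A tRNA gene lies within 1 kb of each of the 6 anchors, and no boundary lies between the anchors of any of the 3.

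Most neighbouring tRNA loci were not joined by a listed loop. Among 34 pairs of neighbouring loci separated by a gap of 6.80 kb, the span of the shortest loop, up to 50 kb, 3 (8.82%) were joined. Among all 46 pairs of tRNA loci in this range, with or without another locus between them, 3 (6.52%) were. Among the 23 of these pairs with a gap of at most 20 kb, 3 (13.0%) were. A common family was present in 19 of the 46 pairs, of which 1 was joined. These pairs were counted after the loops had been seen.

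Other loops passed over tRNA genes without touching them. Beside the second loop above, 9 loops with no tRNA gene within 1 kb of an anchor enclosed 32 tRNA genes. The share of all genes or of bases that lie between anchors was not computed, so this count has no background. A loop of 96.0 kb on X (value 15.5) enclosed 10 tRNA genes, among them the 7-gene locus far from any boundary. A loop of 97.2 kb on 3L (100.9), whose right anchor is at rho, enclosed 9, all of the Glu-CTC-3 family. A loop of 114 kb on 3L (68.1) between trn and caps, genes of leucine-rich repeat proteins, enclosed 4. None of the 9 crossed a boundary, a feature that was not counted over all loops.

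Protein-coding genes of the tRNA pathway are given by lists. Of 20 cytoplasmic aminoacyl-tRNA synthetase genes, which charge tRNAs with amino acids, 6 (30.0%) were at a boundary by the same measure and none was at an anchor. They included ValRS (boundary strength 1.61), GlnRS (1.39), HisRS (1.38), beta-PheRS (1.37) and CysRS (1.33). Of 12 subunit genes of RNA polymerase III, Polr3E was at a boundary (1.64) and Polr1D, whose product is shared with RNA polymerase I, at a loop anchor (value 20.3). Of 5 genes of TFIIIB and of polymerase III regulators, La, an RNA-binding protein of polymerase III transcripts, was at a boundary (1.28). Of 13 genes of boundary-binding proteins, 4 were, namely mod(mdg4) (2.15), su(Hw) (1.63), dwg (1.56) and pita (1.53). The share over all protein-coding genes was 18.2%, and the lists were not tested against it.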

How the data were processed

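Micro-C libraries were made from yw embryos collected over 45 min and kept for 2 h at 25 °C, and read with 50 bases per mate, per the labels' protocols. Per the submitters' processing notes, reads were aligned to dm6 by BWA 0.7.17. The sources used here do not give other steps, or whether the 2 control samples were pooled. Boundary strength and loop value are scores deposited by the authors without a stated scale or normalization. The anchor list held the same 614 intervals as the loop table.

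Of 2034 boundary entries 14 exact repeats were removed, and 90 on other chromosomes were left out. Distances are gaps in bp between gene and bin, 0 on overlap of at least 1 bp, in 1-based coordinates. Protein-coding genes were measured from the nearer end. Tables were made with Python 3.11.15, numpy 2.4.6, pandas 2.3.3 and scipy 1.17.1. Distances and loci were tested on simulated data. Sequences were not used here.

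Named are tRNA genes in boundary bins, at the 10 strongest boundaries with a tRNA gene, at anchors, in loci of 5 or more genes, far from boundaries and beside 1 kb, with their protein-coding neighbours, and up to 5 members per list; one list is not reported here. Other names (the Gly, Met and Phe neighbours of these, the pair at Scr, genes at enclosing loops) were chosen after their values were seen. The members and lists were chosen with earlier results of these data known.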

Additional observations from a re-analysis of the deposited data

How the results depend on the processing

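The results are values of 1 control map, so the settings below change counts and not a test. The share of tRNA genes at a boundary, 12.4% within 1 kb, was 21.7% within 5 kb, 4.48% with overlap required, 5.52% with boundaries of at least the median strength and 8.33% without arm 2R. It stayed inside its interval under the 6 other settings. The share of loci, 12.5%, was 5.56% with boundaries of at least the median strength and stayed inside its interval under 5 others, arm 2R left out among them. The difference between single and clustered genes turned to 0.840 percentage points without arm 2R and kept its sign under 6 others. The median distance was 38868.5 bp with boundaries of at least the median strength. The 12 genes at anchors were 7 within 500 bp, 25 within 5 kb and 0 over the upper part of the loops, from the median value up, since the 3 loops lie below it. The median strength stayed inside its interval under all 4 settings run. Leaving out arm 2R was chosen after seeing the data. No paired analysis was possible because the lists hold no column per sample, which also kept single replicates from being left out. Depth is unknown, so no absence from the lists shows an absence from the chromatin.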
